A study of Mus musculus with 2 samples.

Results

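The genes described here are Tnfaip3, Tnip1, Tnip2, Tnip3, Cyld, Tax1bp1, Birc3 and Traf1, which encode proteins that read, trim or attach ubiquitin chains on the receptor complexes upstream of NF-kB. They were found by gene symbol, and all 8 were present among the 55536 annotated genes of the files. The RNA came from bone-marrow-derived macrophages of strain C57BL/6J, which are primary cells grown from marrow precursors. The cells had received lipid A, the TLR4-activating part of bacterial lipopolysaccharide, at 100 ng/ml for 90 min, and both libraries hold ribosomal-RNA-depleted total RNA of the nucleoplasmic fraction. There were 2 libraries in 1 group, replicate 1 made from 1 µg of RNA and replicate 2 from 500 ng, with 22669533 and 14939143 estimated counts. Sex and age were not collected. Because the labels give both libraries 1 donor entry, their spread can contain technical as well as biological differences. No unstimulated library and no other fraction was analysed here, so every value is a level after lipid A and none is an induction.

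When TLR4 or a TNF receptor is engaged, ubiquitin ligases build chains on adaptor proteins, and the kinases that activate NF-kB assemble on those chains. A20, the product of Tnfaip3, is a ubiquitin-editing enzyme that takes such chains apart or covers them, and it is itself a classical NF-kB target gene, which makes it a negative feedback factor. The ABIN proteins, encoded by Tnip1, Tnip2 and Tnip3, bind ubiquitin chains and A20, and TAX1BP1 is an A20 adaptor that also serves as an autophagy receptor. CYLD is a deubiquitinase of the same signalling complexes. Birc3 encodes the ubiquitin ligase cIAP2, and Traf1 an adaptor that binds cIAP proteins and has no ligase domain of its own.

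The promoter windows and splice junctions that bear on the results are shown first. RefSeq promoter entries (GRCm38.p6) were found for all 8 genes, in 10 windows. The NF-kB consensus was searched on both strands in the 250 bases before each start site, with overlapping matches merged. It occurred in windows of 4 of the 8 genes, Tnfaip3, Tnip1, Tnip3 and Cyld, whereas 7.25% of 32851 promoter windows and 8.23% of 27025 genes held it. A match is a description of these letters and not of binding. The whole windows of Tnip1 (chr11:54962941-54963190, minus strand) and Tnip3 (chr6:65590148-65590397, plus strand) are printed because both encode A20-binding proteins and carry the match near the start. For Tnfaip3 (chr10:19015516-19015545 and chr10:19015411-19015440, minus strand) and Cyld (chr8:88696863-88696892, plus strand) the 30 bases around each match are given. Capitals mark the match, and all lines read 5′ to 3′.
Tnip1 promoter: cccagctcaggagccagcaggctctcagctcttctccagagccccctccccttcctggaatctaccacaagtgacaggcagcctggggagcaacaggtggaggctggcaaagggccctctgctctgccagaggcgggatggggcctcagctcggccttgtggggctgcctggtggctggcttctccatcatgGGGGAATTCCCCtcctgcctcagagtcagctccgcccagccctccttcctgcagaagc
Tnip3 promoter: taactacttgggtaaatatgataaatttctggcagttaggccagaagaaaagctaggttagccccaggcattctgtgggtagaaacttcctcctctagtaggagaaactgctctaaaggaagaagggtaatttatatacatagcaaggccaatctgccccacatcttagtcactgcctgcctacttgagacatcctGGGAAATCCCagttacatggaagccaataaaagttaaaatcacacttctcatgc
Tnfaip3 upstream match: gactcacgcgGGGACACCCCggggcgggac
Tnfaip3 match next to the start: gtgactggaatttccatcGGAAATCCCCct
Cyld match: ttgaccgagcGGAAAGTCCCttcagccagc

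The match began 58 bases before the start site in Tnip1 and 54 bases before it in Tnip3. In Tnfaip3 the matches began 125 and 12 bases before the start, and in Cyld 155 bases before it. Neither the windows of Tnip2, Tax1bp1, Birc3 and Traf1 nor a second Tnfaip3 window held these letters, which says nothing of the factor itself.

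The second set of sequences shows the exon ends at which annotated retained-intron transcripts read on into the intron, because such transcripts held much of the signal of these genes. Each line holds the last 20 bases of a coding exon and the first 20 of the intron, from the GENCODE M21 transcripts, with the first bases of the intron (GT) in capitals. They are the junction of Tnip3-206 (chr6:65590633-65590672, plus strand), both junctions of Tnfaip3-205 (chr10:19006843-19006882 and chr10:19004437-19004476, minus strand), that of Traf1-208 (chr2:34957939-34957978, minus strand) and that of Cyld-207 (chr8:88729819-88729858, plus strand).
Tnip3-206: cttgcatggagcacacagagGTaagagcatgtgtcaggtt
Tnfaip3-205, longer intron: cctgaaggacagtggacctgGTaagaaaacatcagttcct
Tnfaip3-205, shorter intron: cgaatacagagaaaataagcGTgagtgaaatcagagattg
Traf1-208: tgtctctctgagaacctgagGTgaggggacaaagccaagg
Cyld-207: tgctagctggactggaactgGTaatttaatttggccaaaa

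The intron that follows is 2816 bases long in Tnip3-206. Those held by Tnfaip3-205 have 1131 and 699 bases. The intron has 1678 bases in Traf1-208 and 817 bases in Cyld-207.

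All 8 genes were detected in both libraries, over a range of levels that differed by more than their spread only at some steps. Levels are given in TPM, which divides a gene's counts by its effective length. By TPM over all transcripts, Tnip3 and Tnfaip3 stood far above the others. Tnip1, Birc3, Traf1, Tax1bp1 and Tnip2 followed, with means between 105.5 and 48.3 TPM, and Cyld was lowest. In bulk RNA, more cells that express a gene and more RNA per cell cannot be told apart. Of the 8 genes, 7 reached 10 TPM in both libraries, as did 37.6% of 8572 expressed protein-coding genes (those that reached 1 TPM in both). A level of 100 TPM was reached in both by 2 of the 8, and by 3.28% of expressed protein-coding genes. Their median was 74.8 TPM in replicate 1 and 83.3 TPM in replicate 2, where the median expressed protein-coding gene had 6.62 and 8.68 TPM. Over the 8572 genes the TPM of replicate 1 was shifted against replicate 2 by a median of −0.38 on the log2 scale, and SDs of TPM include this shift.

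Tnfaip3, encoding A20 itself (ENSMUSG00000019850.11, chr10:19000910-19015657, minus strand), had 529 TPM in replicate 1 and 681 TPM in replicate 2 (605 ± 107, SD, n = 2), from 60372 and 32452 counts. It ranked 30th and 29th of the 8572 genes. Its TPM was lower in replicate 1, but its scaled counts were higher there, at 2718 CPM in replicate 1 and 2168 CPM in replicate 2.

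Among the A20-binding ABIN genes the levels were far apart. Tnip3 (ENSMUSG00000044162.12, chr6:65525313-65634040, plus strand) encodes ABIN-3 and had 938 and 775 TPM (857 ± 116, SD, n = 2), from 63677 and 29693 counts. It ranked 17th and 27th, with 99.8% and 99.7% of expressed protein-coding genes below it. Tnip1 (ENSMUSG00000020400.17, chr11:54910785-54962917, minus strand) encodes ABIN-1 and had 83.3 and 128 TPM (105.5 ± 31.4, SD, n = 2). Tnip2 (ENSMUSG00000059866.13, chr5:34496087-34513991, minus strand), the gene of ABIN-2, a partner of the kinase TPL2, had 47.35 and 49.3 TPM (48.3 ± 1.37, SD, n = 2). Over all transcripts, Tnip3 lay above both other ABIN genes in each library, and the values of Tnip1 lay above those of Tnip2 without overlap. For coding transcripts alone, Tnip3 (64.3 and 62.9 TPM) and Tnip1 (55.7 and 64.1 TPM) overlapped.

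Tax1bp1, the A20 adaptor and autophagy receptor gene (ENSMUSG00000004535.12, chr6:52713729-52766780, plus strand), had 46.6 and 74.0 TPM (60.3 ± 19.4, SD, n = 2). The deubiquitinase gene Cyld (ENSMUSG00000036712.15, chr8:88697028-88751945, plus strand) had 9.59 and 17.9 TPM (13.8 ± 5.90, SD, n = 2), from 1236 and 993 counts. Cyld was the lowest of the 8 in both libraries, although 60.3% and 70.5% of expressed protein-coding genes were lower still.

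The receptor-complex genes were at middle levels. Birc3 (ENSMUSG00000032000.17, chr9:7848699-7873186, minus strand), encoding the ligase cIAP2, had 97.7 and 89.0 TPM (93.4 ± 6.11, SD, n = 2). Traf1 (ENSMUSG00000026875.14, chr2:34941750-34961772, minus strand), encoding the adaptor TRAF1, had 66.2 and 77.7 TPM (71.9 ± 8.12, SD, n = 2). Birc3 was above Traf1 in both libraries. By mean TPM these 2 genes lay between Tnip2 and Tnip1, although Birc3 was above Tnip1 in replicate 1.

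Ordered by mean TPM, Tnip3 was 1.42-fold above Tnfaip3 and Tnfaip3 5.73-fold above Tnip1, in both steps without overlap of the libraries. Tnip1 and Birc3 overlapped, as did Tax1bp1 with Tnip2, and both pairs changed order between the libraries, so their order is not resolved. Traf1 and Tax1bp1 also overlapped, but Traf1 was higher within each library, with 66.2 and 77.7 TPM against 46.6 and 74.0 TPM. For coding transcripts alone Tax1bp1 was the higher in each library, with 28.8 and 37.8 TPM against 23.1 and 33.65 TPM. Birc3 was 1.30-fold above Traf1 and Tnip2 3.51-fold above Cyld, again without overlap. With 2 libraries, an absence of overlap describes these samples only.

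**Figure D1:**
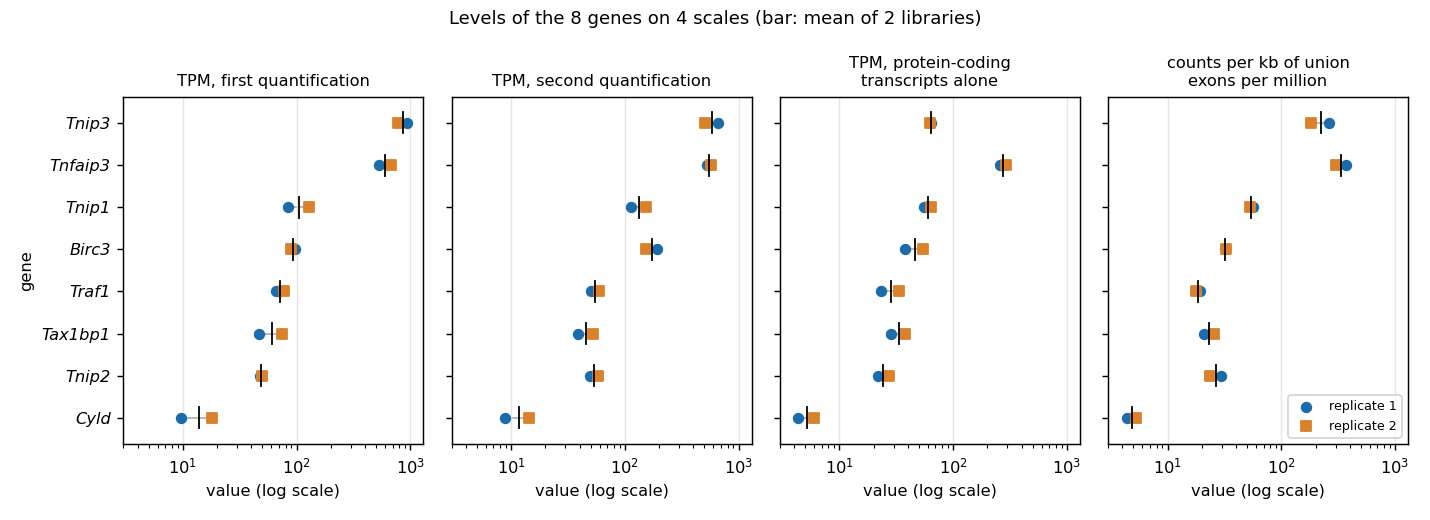
Level of each of the 8 genes in each library on 4 scales (log axis), with circles for replicate 1, squares for replicate 2 and a bar at the mean of the 2 libraries. Tnip3 has the higher mean on both TPM scales over all transcripts, overlapping Tnfaip3 in the second quantification, while Tnfaip3 leads once protein-coding transcripts are counted alone or counts are divided by the union of annotated exons, and Cyld is lowest on every scale.

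Which of Tnip3 and Tnfaip3 led depended on the transcripts included and on the length used. When the TPM of protein-coding transcripts alone was summed, Tnfaip3 had 257 and 295 TPM (275.7 ± 26.8, SD, n = 2) and Tnip3 64.3 and 62.9 TPM (63.6 ± 0.99, SD, n = 2). Tnfaip3 was then 4.34-fold above Tnip3, without overlap, and Tnip3 was 1.06-fold above Tnip1, with overlap. By RPKM over the union of all annotated exons, Tnfaip3 had 373 and 301.5 and Tnip3 260.3 and 183. In counts alone, Tnip3 and Tnfaip3 together held 86.4% of the estimated counts of the 8 genes in replicate 1 and 82.4% in replicate 2.

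Most counts of Tnip3 were assigned to transcripts that lie in the first part of Tnip3-201. Tnip3-201, the protein-coding transcript that starts at the RefSeq start site, spans 43643 bases, but the 5 transcripts that end within the first 9800 bases held 89.5% of the gene's estimated counts in replicate 1 and 89.8% in replicate 2. The 3 protein-coding transcripts that run past that point, Tnip3-201, Tnip3-207 and Tnip3-208, held 10.5% and 10.2%. In the second quantification, made by the authors directly from the read files, the short group held 88.0% and 88.6%. Replicates and quantifications therefore differed by little in this split.

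Most of the counts were assigned to single-exon transcripts that lie largely in introns of the coding transcripts. Tnip3-206, a 4627-base transcript that reads through the junction printed above, had 35482 counts in replicate 1 and 13303 in replicate 2, or 231 and 174.5 TPM. Tnip3-204, 2624 bases long and lying further downstream, had 13521 and 10875 counts, or 161 and 261 TPM. Of the bases of these transcripts, 94.7% in Tnip3-206 and 95.1% in Tnip3-204 lie outside the exons of coding transcripts. Together they held 77.0% and 81.4% of the counts of the gene. By mean share of TPM the leading transcript was instead Tnip3-205, a spliced transcript of 842 bases that ends in the same region. Tnip3-205 had 314 and 205 TPM from 6782 and 2235 counts. In replicate 2 Tnip3-204 lay above it, so the leading transcript by TPM differed between the libraries. In the second quantification Tnip3-205 led in both libraries. The full-length Tnip3-201 had 48.1 and 41.0 TPM.

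**Figure D2:**
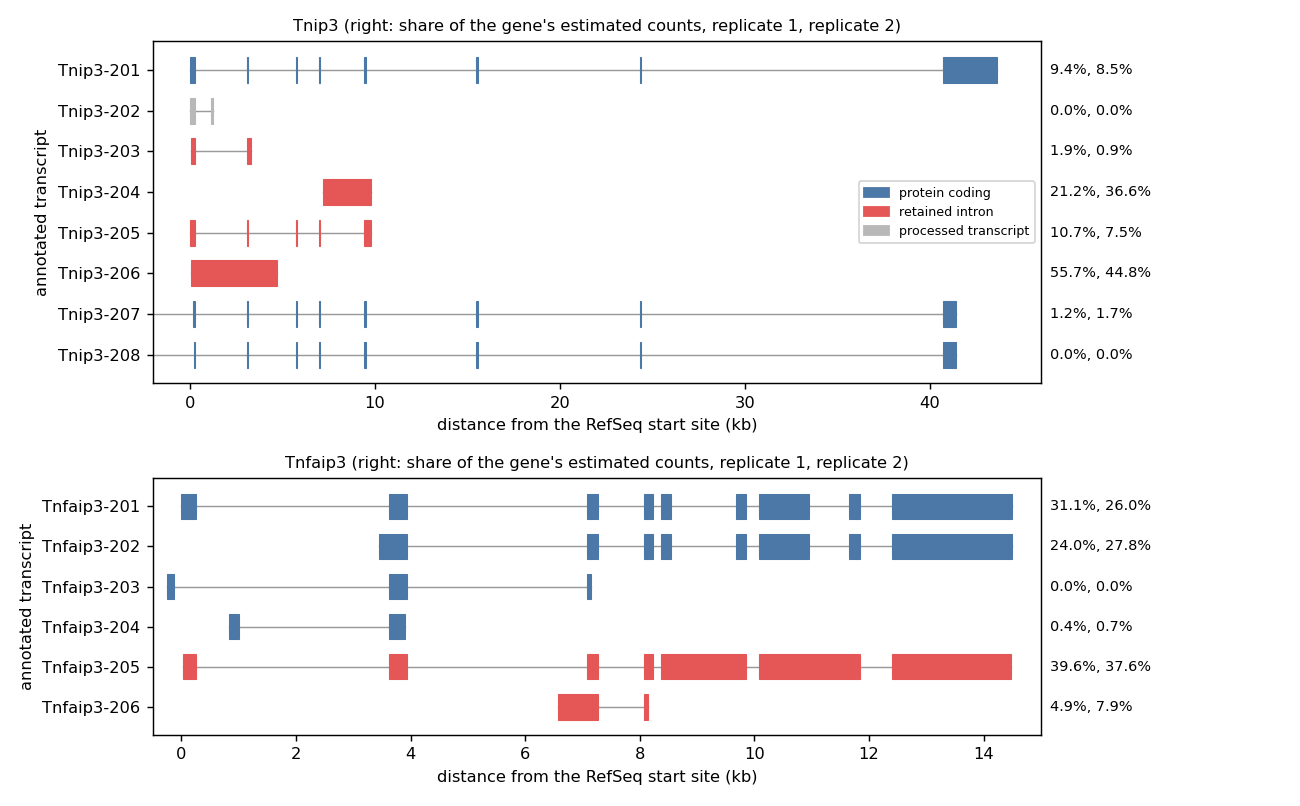
Exons (boxes) and introns (lines) of the annotated transcripts of Tnip3 and Tnfaip3 by distance from the RefSeq start site in kilobases, with the share of the gene's estimated counts in replicate 1 and replicate 2 printed at the right. Tnip3-207 and Tnip3-208 begin further upstream and are cut at the left edge. The single-exon Tnip3-206 (55.7% and 44.8% of counts) and Tnip3-204 (21.2% and 36.6%) lie near the start, whereas in Tnfaip3 most counts lie on transcripts that cover most of the gene.

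In Tnfaip3 the counts were split almost evenly between coding and retained-intron transcripts. Tnfaip3-205, annotated as retained intron and 6199 bases long, holds both introns printed above, and 29.5% of its bases are intronic. It had 23897 and 12215 counts, which were 39.6% and 37.6% of the gene. The coding transcripts Tnfaip3-201 and Tnfaip3-202 had 128 and 116 TPM and 101 and 127 TPM. Tnfaip3-201 held 31.1% and 25.99% of counts, and Tnfaip3-202 24.04% and 27.8%. The highest TPM of the gene fell on a 764-base retained-intron transcript, Tnfaip3-206, with 158 and 268 TPM, although it held only 4.93% and 7.87% of counts. Tnfaip3-203, whose first exon begins upstream of the RefSeq start site, was listed at 0 in both libraries in the first quantification and had 118 and 31.2 counts in the second.

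Taken over all genes with both transcript types, retained-intron transcripts held a median of 21.1% of estimated counts, and by their mean over the libraries 6 of the 7 feedback genes with such a transcript were above it. Of these 6, Tnip2 lay below it in replicate 2. At 50% or more of counts in both libraries stood 2 of these 7 genes, Tnip3 and Traf1, where 16.7% of 5581 expressed protein-coding genes did. By TPM the 2 genes at 50% or more were Tnip3 and Tnfaip3, against a background of 21.6%. The share for Tnip3 was 89.5% and 89.8% of counts, higher than in 98.8% of the 5581 genes. With 2 of 7 genes, the share past 50% in the first quantification was near the background on both measures. Only Tnip3 stood at the upper end of the distribution. In the second quantification Traf1 had 50.4% and 42.7% of counts, and so fell short in replicate 2. By TPM there, Tnfaip3 had 43.5% and 49.3% and Tnip2 69.3% and 74.7%. Only Tnip3 was past 50% on both measures in both quantifications.

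The other genes differed among themselves in the same measure. Traf1 had 55.5% and 51.2% of its counts on retained-intron transcripts, which were shared between the single-exon Traf1-208 with 1139 and 711 counts and Traf1-206 with 988 and 475 counts. Of the bases of Traf1-208, 84.7% are intronic. Tax1bp1 had 43.3% and 52.9%, led by Tax1bp1-206 with 1316.5 and 1348 counts, 92.5% of whose bases lie outside coding-transcript exons. Cyld had 28.3% and 29.9%, and Tnip2 25.9% and 19.5%. At the other end was Tnip1, encoding ABIN-1, with 2.81% and 2.96%, a share below the median although its TPM lay close to that of Birc3. Birc3 has no annotated retained-intron transcript, so nothing can be read from its place. Total RNA of a nuclear fraction includes unspliced precursors, and reads from a precursor and from a stable retained-intron transcript cannot be told apart in these values.

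**Figure D3:**
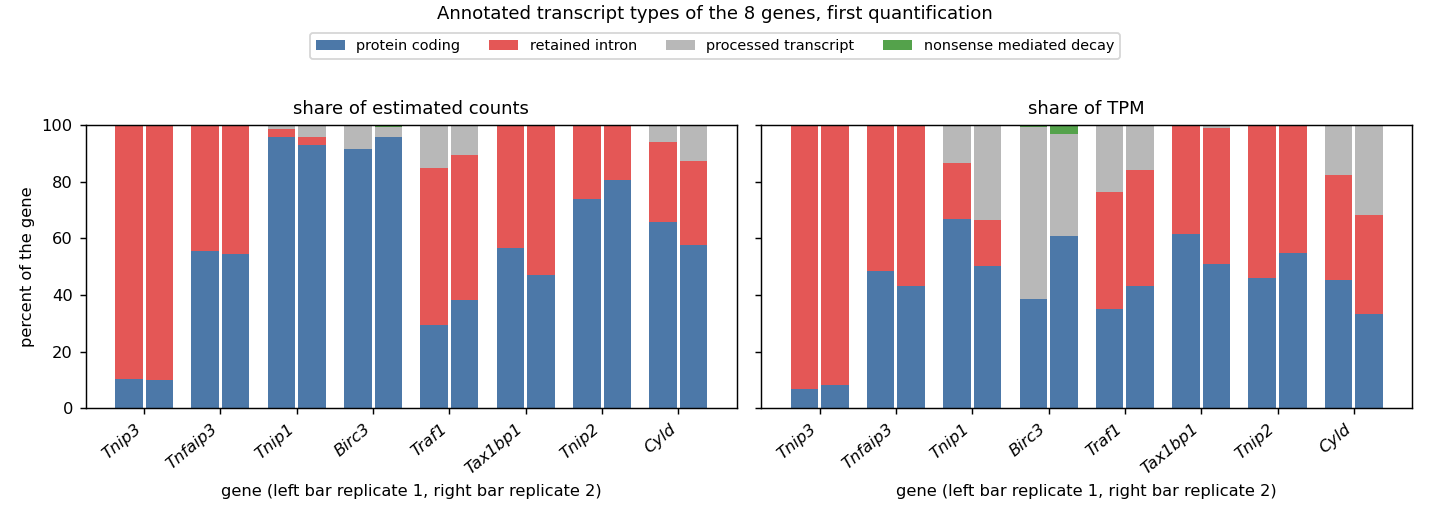
Share of each gene's estimated counts (left) and TPM (right) on each annotated transcript type, in percent, with the left bar of each pair for replicate 1 and the right bar for replicate 2. Retained-intron transcripts hold 89.5% and 89.8% of Tnip3 counts and 2.81% and 2.96% of Tnip1 counts, and the processed-transcript share of Birc3 is large by TPM and small by counts.

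Of the 66 annotated transcripts of the 8 genes, 43 reached 1 TPM in both libraries, 23 reached 10 TPM, and 6 were at 0 in both. Transcripts that are not protein-coding held between 41.5% ± 11.8 of the gene's TPM in Tnip1 and 92.5% ± 0.895 in Tnip3 (SD, n = 2). By counts the lowest shares were 5.56% ± 2.13 in Tnip1 and 6.17% ± 2.95 in Birc3, and the highest was 89.7% ± 0.251 in Tnip3. In the second quantification the lowest share of TPM was that of Tax1bp1, 39.6% ± 7.33.

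In some of these genes, short transcripts carried much of the TPM on few counts, as follows when counts are divided by effective length. In Birc3 the 5 transcripts under 1000 bases held 61.8% and 40.1% of TPM but 8.47% and 4.43% of counts. Birc3-206, a 360-base processed transcript, reached 30.9 and 19.3 TPM from 152 and 50 counts. The full-length coding transcript Birc3-201 had 28.4 and 39.1 TPM from 2418 and 1658 counts. Its TPM thus lay just below that of Birc3-206 in replicate 1 and above it in replicate 2, while its counts were far larger in both. In the second quantification Birc3-201, with 16.5 and 20.9 TPM, lay below Birc3-206, with 64.3 and 43.7 TPM, in both libraries.

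Tnip1 showed the same pattern with 42.6% and 54.01% of TPM and 8.39% and 9.44% of counts on short transcripts. Its leading coding transcript, Tnip1-205, held 61.2% and 57.3% of counts in the first quantification but 28.6% and 21.4% in the second. There, Tnip1-204 held 26.3% and 37.2%, against 0.816% and 1.31% in the first, so the leading coding transcript of Tnip1 is not settled. The 442-base Tnip1-209 reached 16.4 and 20.7 TPM from 126 and 82.2 counts. In Tnip2 the share of short transcripts was 54.02% and 44.97% of TPM and 25.9% and 19.5% of counts. The coding transcript Tnip2-202 had 19.3 and 14.2 TPM and the short retained-intron transcript Tnip2-206 11.6 and 12.2 TPM. Another coding transcript, Tnip2-203, had 2.27 and 12.9 TPM in the first quantification and 0 in both libraries of the second. There, Tnip2-202 had 15.2 and 14.7 TPM and Tnip2-206 14.8 and 19.2 TPM, so the order of these transcripts is not settled. In the first quantification, short transcripts held less in Traf1, with 17.8% and 17.1% of TPM, and in Tax1bp1, with 11.9% and 7.59%. Cyld has no transcript under 1000 bases, although its 1477-base Cyld-208 held 17.5% and 31.7% of TPM from 5.93% and 12.5% of counts.

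The leading transcripts of the remaining genes in the first quantification were as follows. Tax1bp1-201, the full-length coding transcript of Tax1bp1, had 23.4 and 32.8 TPM, with Tax1bp1-206 at 9.37 and 19.3 TPM. Traf1-208 had 18.6 and 23.3 TPM and the coding Traf1-201 11.9 and 15.6 TPM. In the second quantification the 386-base coding Traf1-209 led instead, with 30.1% and 35.8% of the TPM of Traf1. There, Traf1-208 held 19.9% and 20.8% and Traf1-201 8.33% and 3.93%, so the leading transcript of Traf1 is not settled. By mean share of TPM, Cyld was led by the processed transcript Cyld-208, which ends in the first part of the gene and had 1.68 and 5.68 TPM, and by the single-exon retained-intron Cyld-211, with 1.86 and 2.28 TPM. In replicate 1 the coding Cyld-206 was higher than both, with 2.35 TPM, against 1.08 TPM in replicate 2. Cyld-208 was thus low in replicate 1 and higher in replicate 2, with 73.3 and 124 counts, so the leading transcript of Cyld rests on few reads.

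The second quantification placed the same genes at the top and bottom. Tnip3 had 663 and 507 TPM there and Tnfaip3 533 and 575 TPM, so that these 2 genes overlapped. Birc3 had 193 and 155 TPM, which was 1.97-fold and 1.74-fold its first value, the largest gap of the 8 genes, and 86.8% and 77.5% of that TPM was on transcripts under 1000 bases. Tnip1 was 1.37-fold and 1.21-fold higher in the second quantification. Tnip3 was at 0.707 and 0.654 of its first value, and Cyld was again lowest with 8.88 and 14.4 TPM. Tnfaip3-204, a 456-base coding transcript, had 27.5 and 51.7 TPM in the first quantification and 158 and 157 TPM in the second.

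Between the libraries, none of the 8 genes differed by 1.5-fold or more on TMM-scaled counts, a normalisation that sets the bulk of genes equal, whereas 19.4% of 13515 genes tested did. The biological coefficient of variation over those genes was 0.21, which corresponds to an SD of 0.43 for a log2 ratio of the 2 libraries. Tnip3 differed most, with 2866 CPM in replicate 1 and 1983 CPM in replicate 2, a log2 ratio of 0.53. Of all genes tested, 77.2% had a smaller ratio in size. The ratio of Tnip3 lay between 0.53 and 0.73 on all 8 scales tried, and past 1.5-fold on the scales based on TPM or FPKM. Most of these scales use the same counts with another size factor, prior count, filter or length trend.

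The other ratios were smaller by TMM-scaled counts. Tnip2 had 79.8 and 62.7 CPM, a log2 ratio of 0.35, and Tnfaip3 2718 and 2168 CPM, a log2 ratio of 0.33. Tax1bp1 had 209 and 256 CPM, a log2 ratio of −0.29, and Cyld 55.7 and 66.4 CPM, a log2 ratio of −0.25. Each of these 4 genes kept its direction on all 8 scales, and so did Traf1 (0.16), although the ratio of Tnfaip3 was only 0.01 by centred TPM. As most of the scales reuse the same counts, they are not independent. The direction of Tnip1 was not settled, with 0.12 by TMM-scaled counts and −0.24 by centred TPM, nor was that of Birc3, with −0.02 by TMM-scaled counts, 0.51 by centred TPM and 0.66 in the second quantification. In all, 5 of the 8 genes were higher in replicate 1 by TMM-scaled counts, where 50.2% of all genes tested were. Starting RNA and depth both differed between the libraries and cannot be told apart from the replicates.

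**Figure D4:**
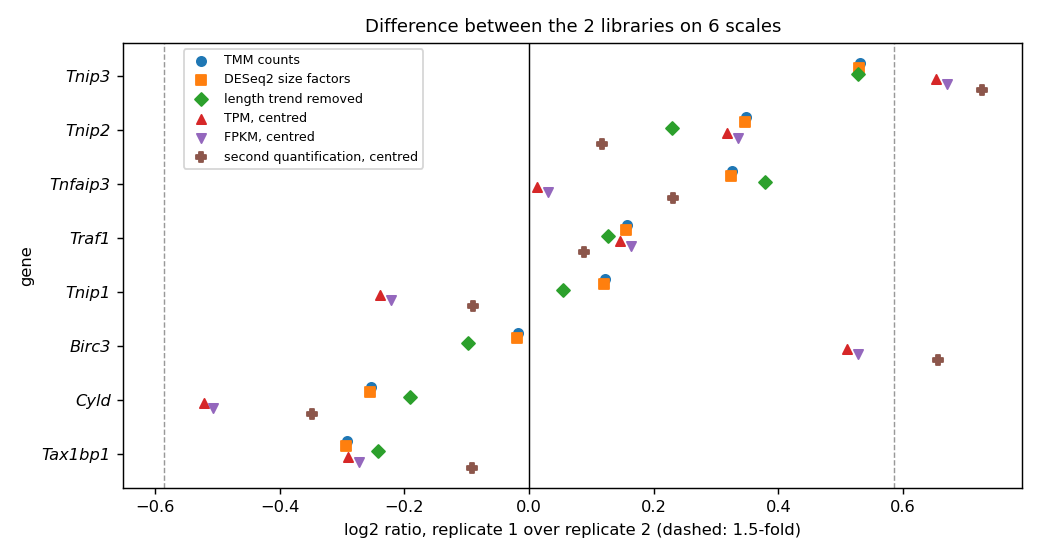
Log2 ratio of replicate 1 over replicate 2 for each gene on 6 scales, with the solid line at 0 and dashed lines at 1.5-fold. The count-based markers of all 8 genes lie between the dashed lines, Tnip3 lies past them on the TPM and FPKM scales, Birc3 does so in the second quantification alone, and Birc3 and Tnip1 fall on both sides of 0.

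The other genes of the same ubiquitin steps had a lower median level than the feedback genes by TPM over all transcripts. Of 50 such genes, listed by role, 44 reached 1 TPM in both libraries, 29 reached 10 TPM and 3 reached 100 TPM. Their median was 11.9 TPM in replicate 1 and 15.8 TPM in replicate 2 (13.8 ± 2.79, SD, n = 2), where the 8 feedback genes had 79.0 ± 6.07 TPM. The median of the feedback genes was 39.6 TPM for coding transcripts alone and 29.9 per kilobase of union exons. The 50 genes were not compared on those scales. The difference between these lists was not tested, since both were chosen with earlier results known.

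The listed A20 partner ligase genes had a median of 14.9 ± 7.11 TPM (SD, n = 2). That of the A20-like deubiquitinase genes was 9.63 ± 3.345 TPM (SD, n = 2). Itch and Rnf11, which encode ligase components of the A20 complex, had 11.8 and 27.2 TPM and 8.03 and 12.7 TPM. Both lay below Tnfaip3 in every library. Of the A20-like deubiquitinase genes, Vcpip1 led with 19.9 and 23.5 TPM, followed by Otud7b, encoding Cezanne, with 7.86 and 12.7 TPM. In the second quantification the order was the reverse, with 11.1 and 12.6 TPM for Vcpip1 and 20.2 and 23.8 TPM for Otud7b. Otud7a was listed at 0 in both libraries in the first quantification and had 44.8 and 60.2 TPM in the second, so its level is not settled.

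The ligase complex that builds linear chains, which ABIN and A20 proteins bind, had all 3 genes above 10 TPM in both libraries. Rnf31, encoding its catalytic subunit HOIP, had 42.0 and 33.1 TPM, Sharpin 19.2 and 17.7 TPM and Rbck1 12.8 and 14.8 TPM. The opposing deubiquitinase gene Otulin had 9.98 and 13.6 TPM, and Spata2, whose product ties CYLD to that ligase complex, had 9.18 and 8.29 TPM. These values lay near that of Cyld. Spata2l, a relative of Spata2, had 0.46 and 0.85 TPM.

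Among genes related to Birc3 and Traf1, the IAP gene Birc6 had 41.0 and 61.4 TPM and Xiap 32.8 and 48.8 TPM, both below Birc3 in each library. The lowest was the mitotic Birc5, with 0.48 TPM in both. These ranks use TPM over all transcripts. For coding transcripts alone Birc3 had 37.7 and 54.15 TPM, and the other IAP genes were not compared on that scale. Of the TRAF genes, Traf7 had 20.7 and 23.8 TPM and Traf6, the ligase of the TLR pathway, 11.1 and 13.9 TPM, while Traf4 had 0.42 and 0.48 TPM. Traf1 thus stood above the other TRAF genes of the list in both libraries.

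In the TNF receptor complex, Cflar, encoding the caspase inhibitor c-FLIP, had 254 and 305 TPM. This level lay between those of Tnfaip3 and Tnip1. Ripk1, whose product is a substrate of A20 and of the cIAP ligases, had 23.4 and 28.6 TPM, and Fadd was lowest with 0.82 and 0.89 TPM. Of the genes of the TAK1 and IKK kinase complexes, the TAK1 adaptor gene Tab2 had 63.6 and 89.0 TPM, the kinase gene Ikbkb 55.2 and 91.4 TPM and Tab1, encoding another TAK1 subunit, 0.70 and 1.51 TPM.

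The ubiquitin conjugating enzyme gene Ube2d3 had 78.4 and 107 TPM, and Ube2n, whose product makes the chains on which TAK1 assembles, 38.3 and 61.2 TPM. Ube2l3, a conjugating enzyme gene used by the linear chain ligase, had the lowest mean of its group in the first quantification, with 10.4 and 12.7 TPM. It was not the lowest in the second, with 20.0 and 27.6 TPM. Among ubiquitin-binding receptors and adaptors, Sqstm1, which encodes the autophagy receptor p62, had 150 and 262 TPM and Tank, a TBK1 adaptor gene, 112.5 and 121 TPM. Both were above Tax1bp1 in each library, and Calcoco1, a relative of Tax1bp1, was lowest with 2.14 and 4.82 TPM.

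**Figure D5:**
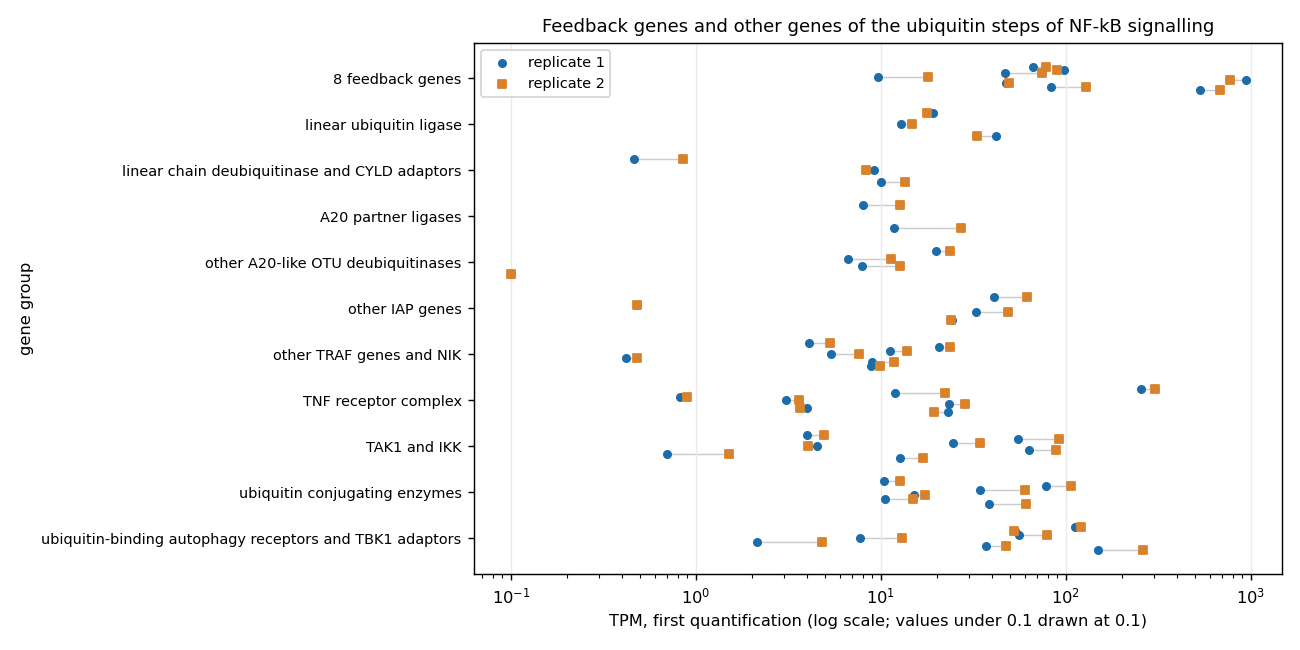
TPM of the first quantification (log axis) for the 8 feedback genes in the top row and 50 other genes of the same pathway by role, with circles for replicate 1, squares for replicate 2 and a line joining the libraries of a gene. Tnip3 and Tnfaip3 lie to the right of every other gene shown, and Otud7a, at 0, is drawn at 0.1.

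Between the libraries, 3 of 49 of these genes were 1.5-fold or more higher in replicate 1, namely Birc5, Tnfrsf1a and Ripk3, against 11.1% of all genes tested. The only one 1.5-fold or more lower was Ube2d2a, against 8.34%. These 4 genes were named after their values were seen. Ube2d2a had 3704 counts in replicate 1 and 3867 in replicate 2 despite the lower depth of replicate 2.

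The cell label was checked against marker genes. All 10 macrophage markers reached 10 TPM in both libraries, and their summed level was 2112 and 2821 TPM. The summed levels of 6 T and NK cell markers were 0.03 and 0.04 TPM, with 4 of them at 0 in both libraries, and those of 5 B and plasma cell markers 0.23 and 0.13 TPM. Those of 6 neutrophil markers were 1.41 and 2.01 TPM, with 3 at 0, and those of 5 stromal and endothelial markers 0.30 and 0.73 TPM, with 1 at 0. In the second quantification the T and NK cell list summed to 3.40 and 14.02 TPM and the stromal and endothelial list to 4.55 and 14.8 TPM, mostly from Cd3d and Pecam1, each listed under 1 TPM in the first. Cyld, the lowest feedback gene, had 8.88 and 14.4 TPM there, so in replicate 2 these sums lay close to it. Their part in the levels of the feedback genes was not tested.

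Some limits attach to single genes. The deposited TPM of Tnfaip3 and Tnip3 lay above the authors' own interval in both libraries, as did that of Tax1bp1 in replicate 2. For Tnfaip3 in replicate 1 the interval was 505 to 520 TPM, below the deposited value of 529 TPM. Annotated genes on the opposite strand overlap Tnip1, Cyld and Tax1bp1, and the sources used here do not say whether strand was used in counting. The pseudogene Gm12230, inside Tnip1, had 231 and 153 counts, small beside the 4491 and 2781 counts of Tnip1. Gm17910, inside Cyld, had 47 and 46 counts beside 1236 and 993.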

How the data were processed

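The authors deposited, for each of 2 libraries, a gene and a transcript table of a first quantification, based on reads aligned to the transcriptome (mm10, GENCODE M21), and a transcript table of a second one, made directly from 10 read files, per the file headers and the deposited notes. Which aligner and quantifiers were run is not given in the sources used here. Estimated counts, as the authors deposited them, carry no normalization and can be fractional. For 7 of the 8 genes they were whole in both libraries (within 0.005). In the deposited TPM values, counts are divided by effective length and scaled to a fixed sum across all features. FPKM, also deposited by the authors, was an alternative scale. The deposited bounds of the TPM interval (unit signal) are printed for 1 gene, and the authors' effective lengths entered 2 alternatives.

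The tools were edgeR 4.0.16 and DESeq2 1.42.0 under R 4.3.3, with pandas 2.3.3, numpy 2.4.6 and matplotlib 3.10.9 under Python 3.11.15. Library ratios came from counts rounded to whole numbers, over 13515 genes kept by filterByExpr, scaled by TMM with a prior count of 2. DESeq2 gave alternative size factors. The ratio was checked on simulated data. The dispersion was estimated there too, but no limit was set for its error. With 1 group, no test between conditions was possible and no p-value is given. TPM and FPKM ratios had a pseudocount of 0.1 and were centred on the median of expressed protein-coding genes.

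The genes and the pathway and marker lists were chosen with earlier results of these data known. The text names all 8 genes, the 2 highest and the lowest gene of each pathway role by mean TPM, and the 2 transcripts of each gene with the highest share of TPM. Other transcripts and the overlapping genes were named after their values were seen. Replicate numbers are the labels' own.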

Additional observations from a re-analysis of the deposited data

How the results depend on the processing

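No paired analysis was possible because the labels give 1 group, so no sample of another group shares a replicate number. Leaving out a library ends every ratio between libraries, so no such value exists. The number of genes at 10 TPM or more was within 1.5 times its main count under each alternative tried. At 100 TPM or more in both libraries stood 2 of the 8 genes with deposited TPM. There were 4 in the second quantification, 4 with FPKM, 7 with TPM rescaled over protein-coding genes whose effective length was at least 200, and 1 with coding transcripts alone. Leaving out a library gave 2 to 3. The median of the 8 genes, 79.0 TPM, was 94.7 in the second quantification, 105.7 FPKM, 311 rescaled, 39.6 with coding transcripts alone and 29.9 per kilobase of union exons. The median of the 50 other pathway genes, 13.8 TPM, was 18.3 FPKM and 53.4 rescaled, and was not taken for coding transcripts alone or union exons. The count past 1.5-fold between libraries was 0 by TMM-scaled counts, 1 with centred TPM, 1 with centred FPKM and 2 in the second quantification. Coding transcripts alone and union exons were chosen after seeing the data. The causes were not tested.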
